A study of Arabidopsis thaliana with 8 samples.

Results

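BGLU28 (AT2G44460), a member of the beta-glucosidase family, and AT1G04770 are known markers of sulfur deficiency in Arabidopsis thaliana. Each was measured by 1 probe set that the platform's annotation assigns to it alone, so that 2 of the 22810 probe sets, and 2 of the 13286 genes that could be named, are described here. Both probe sets passed the filter on low signals, as did 16049 in all. The 8 arrays hold 4 groups of 2, all from 10-day-old plants of ecotype WS grown vertically on half-strength MS medium. Selenate roots and selenate shoots came from plants on medium with 40 µM selenate, and control roots and control shoots came from plants on the same medium without it. Values are array signals on a linear scale, each array being scaled to the same trimmed mean of 500.04. Whether both arrays of a group stem from separate cultures is not said, so the p-values reflect the spread of these samples alone, and that spread may be technical.

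Plants take up sulfate by transporters of the root, activate it with ATP sulfurylase and reduce it to sulfide for cysteine synthesis. Selenate resembles sulfate closely enough to share these transporters and enzymes. When sulfur runs short, Arabidopsis raises the transcripts of a set of marker genes, and it can release the sulfur bound in glucosinolates, sulfur-rich thioglucosides whose breakdown starts with the removal of glucose by beta-glucosidases. Array measurements of a whole organ cannot tell a change in transcript per cell from a change in the share of cells that hold the transcript.

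Organ markers separated the arrays as labelled. All 5 measured shoot markers, SBPASE, PRK, LHCB4.2, LHCB4.1 and CaS, gave their lowest shoot signal above their highest root signal, and all 3 root markers, EXPA7, EXPA18 and PYK10, the reverse. The ratio of 3' to 5' signal of the GAPDH control probe sets, a sign of RNA integrity, ranged from 0.783 to 0.868 on the root arrays and from 2.03 to 10.4 on the shoot arrays. The ubiquitin ratio ran from 2.12 to 2.75 on root and from 4.38 to 6.11 on shoot arrays. For actin it ran from 4.74 to 9.07 and from 21.2 to 55.9. Replicate arrays differed by a standard deviation of 0.26 to 0.28 (log2) in roots and 0.41 to 0.51 in shoots. Differences were tested with limma on log2 of signal plus a pseudocount of 25.0, with p-values adjusted over every probe set that passed the filter, and an adjusted p under 0.05 is a call. The fit gave each probe set 1 spread over all groups, so its standard errors are equal in roots and shoots. For shoots, where replicates differed more, they may be too small. A positive log2 difference means higher with selenate or higher in roots.

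BGLU28 rose in selenate roots, whereas its signal in control roots was too low to be measured well. Its signal was 8237 and 6952 in the 2 selenate roots, against 21.4 and 42.1 in the 2 control roots. The groups lie far apart, and the 2 selenate arrays differ from each other by 1.18 times. The means were 7594 ± 908 in selenate roots and 31.8 ± 14.6 in control roots (SD, n = 2 each). The log2 difference was 7.09 ± 0.23 (SE; 95% confidence interval 6.57 to 7.60; limma, adjusted p = 1.08e-06), a 136-fold rise on the scale with the pseudocount. The fold was 58.4 with 4 times the pseudocount and 215 with a pseudocount of 1% of the trimmed mean. Both control signals lie under 100, the level used as the filter, and a fold against them depends on such choices. BGLU28 passed that filter only through its selenate arrays. With every signal below 100 raised to 100, BGLU28 was 75.7-fold higher in selenate roots.

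AT1G04770 also rose in roots, from a level that was already well measured in the controls, and by much less. Its signal was 1748 and 1622 in selenate roots, against 744.5 and 657.3 in control roots. Both selenate arrays exceeded both control arrays. With 2 arrays a group that alone says little, since the smallest possible p of an exact permutation test is 0.333. The means were 1685 ± 89.2 in selenate roots and 701 ± 61.7 in control roots (SD, n = 2 each), with a ratio of 2.40. The rise fitted on the scale with the pseudocount was 2.36-fold, with a 95% confidence interval of 1.81 to 3.08 (limma, adjusted p = 0.00218).

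Both genes were therefore called higher in selenate roots, a call that 537 of the 16049 probe sets, or 3.35%, received. By size of the log2 difference BGLU28 ranked first of all probe sets tested, and it ranked second with a pseudocount of 1% of the trimmed mean or without control root 1. AT1G04770 ranked 390, with 2.42% of the probe sets above it. The annotation places BGLU28 beside another beta-glucosidase gene, BGLU15, and near BGLU29. BGLU15 had signals of 2958 and 2741 in selenate roots, against 2061 and 1955 in control roots (log2 difference 0.50, limma adjusted p = 0.161, and 0.0105 when only root arrays were fitted), and BGLU29 did not exceed 43.0 on any array and was not tested. The RefSeq gene model of AT1G04770 overlaps that of its neighbour VAMP726, a membrane fusion protein gene without a probe set of its own here, and where the probes lie was not known. A share of VAMP726 transcript in the AT1G04770 signal was not tested.

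**Figure D1:**
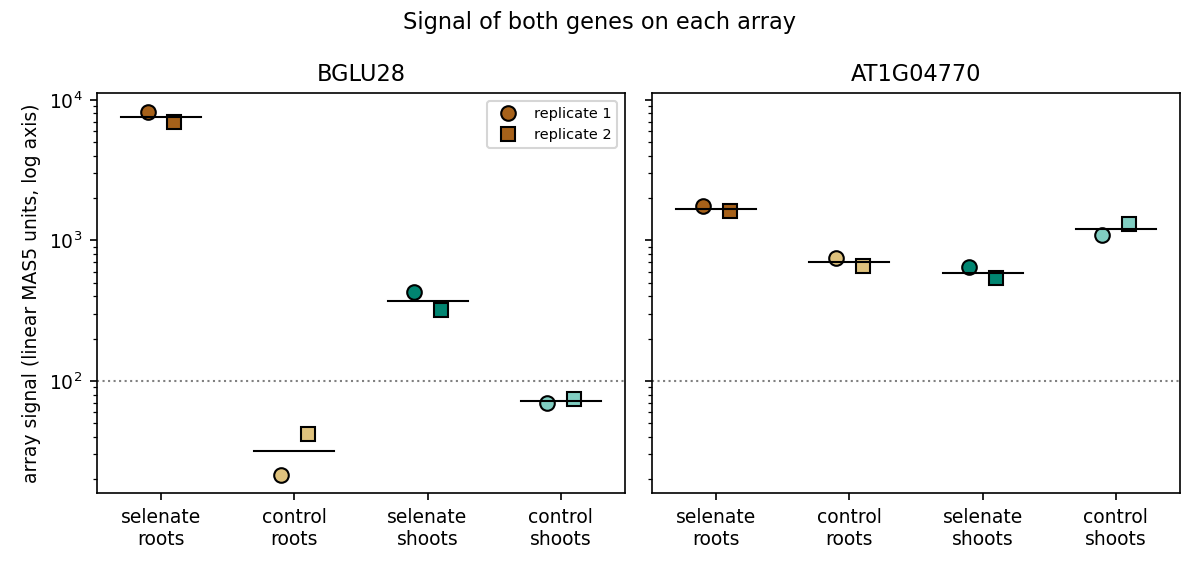
Array signal (linear MAS5 units on a log axis) of BGLU28 at left and AT1G04770 at right in selenate roots, control roots, selenate shoots and control shoots. Circles are replicate 1, squares replicate 2, horizontal bars the mean of the 2 arrays, and the dotted line the filter level of 100. BGLU28 lies at 6952 and above in selenate roots and below 100 in both control groups, and AT1G04770 is higher with selenate in roots and lower with selenate in shoots.

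In shoots the 2 genes moved in opposite directions. BGLU28 had signals of 427.2 and 317.4 in selenate shoots, against 69.1 and 74.2 in control shoots. Both selenate arrays stood above the filter level and both control arrays below it. The means were 372 ± 77.6 in selenate shoots and 71.7 ± 3.61 in control shoots (SD, n = 2 each), and the log2 difference of 2.03 ± 0.23 (SE; 95% confidence interval 1.51 to 2.54; limma, adjusted p = 0.00542) corresponds to a 4.07-fold rise on the scale with the pseudocount. With signals below 100 raised to 100 the rise was 3.68-fold. BGLU28 ranked 16 of 16049 by log2 difference in shoots, where 171 probe sets (1.07%) were called higher.

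AT1G04770 fell in shoots. Its signal was 643.0 and 536.1 in selenate shoots, against 1091 and 1317 in control shoots. The means were 589.6 ± 75.6 in selenate shoots and 1204 ± 159.8 in control shoots (SD, n = 2 each). The log2 difference was -0.999 ± 0.17 (SE; 95% confidence interval -1.38 to -0.61; limma, adjusted p = 0.0230), which is a 2.00-fold fall on the scale with the pseudocount. Lower calls were made for 128 probe sets in shoots (0.798%), and 169 of those tested had a more negative difference than AT1G04770.

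The shoot values carry more doubt than the root values. The GAPDH ratio was 7.34 and 2.95 on selenate shoots 1 and 2, against 2.03 and 10.4 on control shoots 1 and 2, and within each shoot group both genes had the higher signal on the array with the higher ratio. The actin ratio ordered the arrays of each shoot group in the same way. The ubiquitin ratio did so in control shoots but not in selenate shoots, at 5.24 and 6.11 on arrays 1 and 2. Without the array with the higher GAPDH ratio in each shoot group the log2 differences were 1.86 for BGLU28 and -0.99 for AT1G04770. These rest on 1 array per shoot group, so no spread between shoot replicates enters and they are given as sizes only. With only the 4 shoot arrays in the fit both calls ended (limma, adjusted p = 0.131 for BGLU28 and 0.271 for AT1G04770), and 0 probe sets were called in either direction, while 672 higher and 648 lower had an unadjusted p under 0.05. The call of AT1G04770 also ended when 1 array was left out, if that was either selenate shoot or any root array. It was kept without either control shoot. The log2 difference was -1.12 and -0.87 without selenate shoot 1 and 2, and -1.13 and -0.87 without control shoot 1 and 2. Without a root array it stayed at -0.999 and only the shared spread changed. A group of 1 array adds nothing to that spread, so these outcomes do not show which arrays the fall rests on.

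The response to selenate differed between the organs for both genes. The root response exceeded the shoot response by a log2 difference of 5.06 ± 0.32 for BGLU28 (SE; 95% confidence interval 4.34 to 5.79; limma interaction term, adjusted p = 7.38e-05), and by 4.36 to 5.50 over 20 alternatives. For AT1G04770 it did so by 2.24 ± 0.24 (SE; 95% confidence interval 1.69 to 2.78; limma, adjusted p = 0.00103), and here the 2 responses have opposite signs. A higher response in roots was called for 366 probe sets, or 2.28%. With the calls of the separate organs, BGLU28 was 1 of 29 probe sets (0.181%) called higher in both, and AT1G04770 was 1 of 7 (0.0436%) called higher in roots and lower in shoots.

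**Figure D2:**
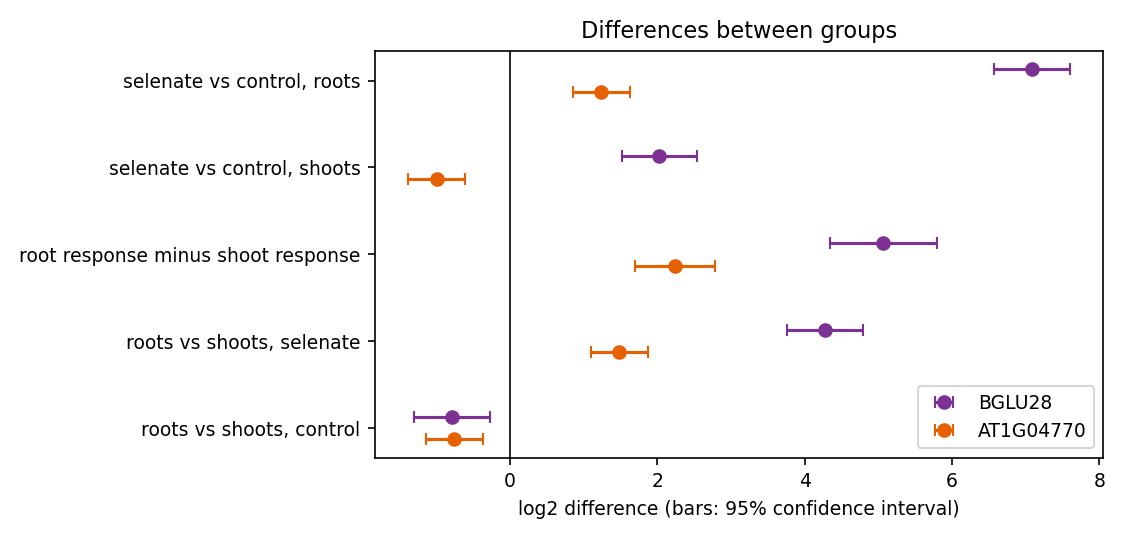
Log2 differences of BGLU28 (purple) and AT1G04770 (orange) for selenate against control, first in roots and then in shoots, the root response minus the shoot response, and roots against shoots with selenate and in the control. Points are limma estimates and bars 95% confidence intervals. The AT1G04770 estimates for selenate lie on opposite sides of 0, at 1.24 in roots and -0.999 in shoots. Estimates of both genes change sides between the organ comparisons with selenate and in the control, where all BGLU28 signals are under 100.

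The order of the organs turned with the medium. In plants on selenate, BGLU28 was higher in roots than in shoots by a log2 difference of 4.27 ± 0.23 (SE; limma, adjusted p = 3.10e-07), which is 19.3-fold on the scale with the pseudocount, and the means of 7594 and 372 have a ratio of 20.4. AT1G04770, at means of 1685 in selenate roots and 589.6 in selenate shoots, was 2.79-fold higher in roots on that scale (limma, adjusted p = 5.01e-05). A higher level in roots than in shoots was called for 39.5% of all probe sets tested with selenate. On control medium AT1G04770, with means of 701 in roots and 1204 in shoots, was 1.69-fold lower in roots on the same scale (log2 difference -0.76 ± 0.17 SE; limma, adjusted p = 0.00366). BGLU28 was likewise lower in control roots by 0.79 ± 0.23 SE on the log2 scale (limma, adjusted p = 0.0130), but all 4 control signals were under 100. With these signals raised to 100 no difference was left, and with 4 times the pseudocount the adjusted p was 0.0670 (limma). A lower level in control roots was called for 25.7% of the probe sets. Both calls together, lower in control roots and higher in selenate roots than in the matching shoots, were made for 54 probe sets, or 0.336%. The median over all probe sets tested was 0.25 between selenate roots and selenate shoots and 0.21 between control roots and control shoots (log2), and after median centring it was 0.10 and 0.07, with log2 differences of 1.33 and -0.89 for AT1G04770.

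From high to low, the levels of BGLU28 ran from selenate roots over selenate shoots and control shoots to control roots, and each neighbour in this order differed by limma in the tests above, with the last step resting on signals under 100. AT1G04770 was highest in selenate roots, then control shoots, control roots and selenate shoots. Selenate roots exceeded control shoots by 0.48 ± 0.17 (log2, SE; limma, adjusted p = 0.0325), a call shared with 38.1% of the probe sets. That call ended in 8 of 21 alternative settings, among them median centring (limma, adjusted p = 0.106). The 2 lowest groups of AT1G04770, selenate shoots and control roots, did not differ beyond their spread (log2 difference, selenate shoots minus control roots, -0.24; 95% confidence interval -0.63 to 0.14; limma, adjusted p = 0.236). Without the array with the higher GAPDH ratio in each shoot group, which leaves no spread between shoot replicates, this difference was -0.37. In the same comparison BGLU28 was called higher in selenate shoots with a log2 difference of 2.82, as were 25.8% of the probe sets.

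Few other genes of the sulfur response could be named on this array. Of a list of 16 sulfur deficiency markers, 3 had a nameable probe set and all 3 were tested. All 3 were called higher in selenate roots, as were 3.35% of all probe sets tested. Of the 3, 2 are BGLU28 and AT1G04770 themselves, and the list was chosen with earlier results of these data known. BGLU28 and AT1G12030 passed the filter only through their selenate arrays, and so could hardly have been called lower. The count therefore adds only AT1G12030, and only as a description. Its signal was 445.2 and 517.6 in selenate roots, against 4.6 and 5.8 in control roots, which is 4.80-fold higher when signals below 100 are raised to 100 (log2 difference with the pseudocount 4.06 ± 0.23 SE; limma, adjusted p = 9.45e-06). Over 21 alternatives that log2 difference was between 2.26 and 5.57. In shoots it had 188.2 and 141.6 with selenate, against 32.8 and 26.0 in the control (log2 difference 1.80; limma, adjusted p = 0.00787). AT1G12030 thus shared the direction of BGLU28 in both organs, and its control signals were also under 100. Its shoot call ended with the floor of 100, where the log2 difference was 0.71, a 1.63-fold rise against 3.47-fold with the pseudocount (limma, adjusted p = 0.0867). It also ended with only the shoot arrays (0.131) and without selenate shoot 1 (0.0641), and its larger response in roots (log2 difference 2.27; limma, adjusted p = 0.00515) lost the call without selenate root 2 (0.0604). Over the list 2 of 3 were called higher and 1 of 3 lower in shoots, where 1.07% and 0.798% of all probe sets were.

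Among 26 genes of sulfate uptake and assimilation 3 were tested, of which 1 rose and 1 fell in roots and 0 were called in shoots. Of all probe sets tested, 3.35% were called higher and 2.37% lower in selenate roots, and 1.07% higher and 0.798% lower in selenate shoots. APS3, an isoform of ATP sulfurylase, averaged 947 ± 71.3 in selenate roots and 160.1 ± 6.08 in control roots (SD, n = 2 each; limma, adjusted p = 1.72e-05), against 782 ± 9.90 in selenate shoots and 1141 ± 36.7 in control shoots (log2 difference -0.53; limma, adjusted p = 0.129). Its root response exceeded its shoot response by a log2 difference of 2.92 (limma, adjusted p = 0.000134). APS4, another isoform, was lower in selenate roots, with a log2 difference of -2.00 (limma, adjusted p = 0.000107), and SIR, the sulfite reductase, had 0.32 (adjusted p = 0.526).

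The list fixed for the protein family of AT1G04770 held 5 genes, of which 3 had a probe set. AT3G51280 was tested beside AT1G04770 and had log2 differences of -0.08 in roots (limma, adjusted p = 0.953) and -0.85 in shoots (adjusted p = 0.0719, and 0.0365 with the floor of 100), while AT5G44330 stayed at 4.6 or less. Of 17 beta-glucosidases nearest BGLU28 and myrosinases, the thioglucosidases that open glucosinolates, 8 had a probe set and 4 were tested. Only 1, BGLU28 itself, was called, higher in both organs, and it passed the filter only through its selenate arrays. Of all probe sets tested, 3.35% were called higher in roots, 1.07% in shoots and 0.181% in both. BGLU16 had log2 differences of -0.60 in roots and -0.20 in shoots (limma, adjusted p = 0.213 and 0.765; 0.00487 in roots with only the root arrays), and PYK10, an abundant root beta-glucosidase, had 0.08 and -0.26 (adjusted p = 0.960 and 0.674). BGLU27, BGLU29, BGLU31 and BGLU32 reached at most 65.4 on any array.

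Of 21 genes of aliphatic glucosinolate synthesis 3 were tested, and 1 was called lower in each organ, as were 2.37% of all probe sets in roots and 0.798% in shoots. This was BCAT4, which starts the chain elongation of methionine, with a log2 difference of -1.05 in roots (limma, adjusted p = 0.00465) and -1.46 in shoots (adjusted p = 0.00542). In roots the adjusted p was 0.0796 without control root 1 and 0.0875 without selenate root 2, and in shoots it was 0.131 with only the shoot arrays (limma). UGT74B1, a glucosyltransferase of glucosinolate synthesis, had 0.46 in roots and -0.01 in shoots (limma, adjusted p = 0.122 and 0.991; 0.0173 in roots with only the root arrays), and AT2G31790 had 0.01 in both organs (adjusted p = 0.993 and 0.995).

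**Figure D3:**
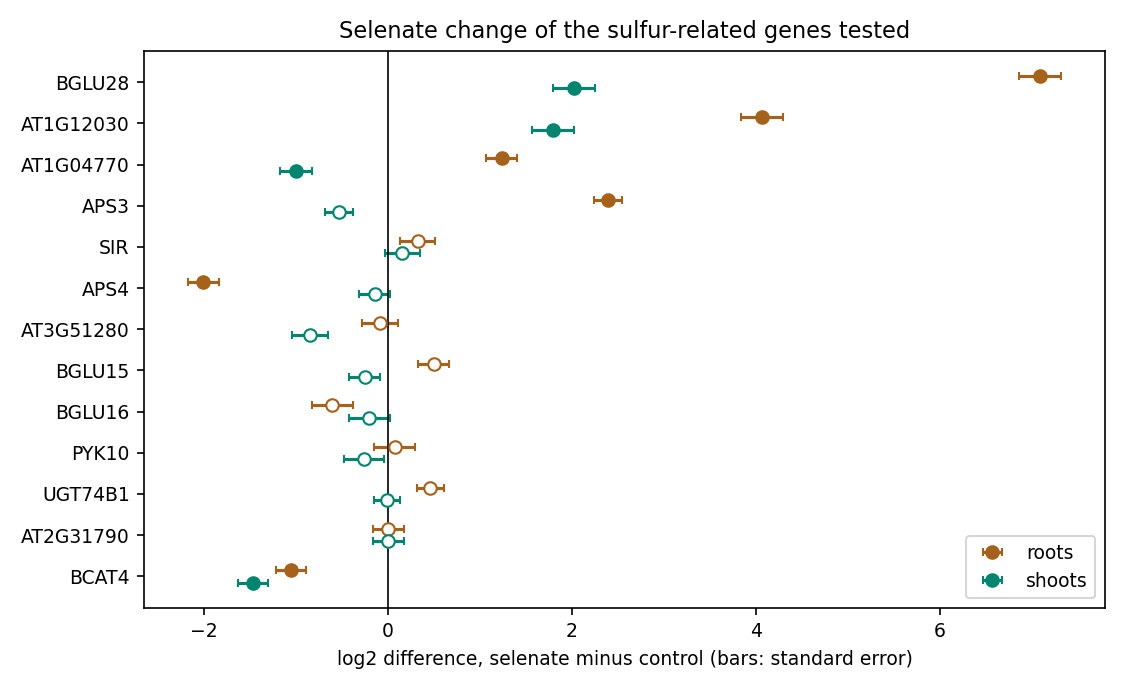
Log2 difference between selenate and control for the 13 tested genes of the 5 lists, in roots (brown) and shoots (green). Filled points have an adjusted p under 0.05, open points do not, and bars are standard errors. In roots BGLU28, AT1G12030, AT1G04770 and APS3 are filled above 0, with APS4 and BCAT4 filled below 0. In shoots BGLU28 and AT1G12030 are filled above 0, with AT1G04770 and BCAT4 filled below 0.

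The named genes with the most similar patterns were sought by Pearson's correlation of log2 values over the 8 arrays, which share their groups and scaling, so the values serve as a description. For BGLU28 these were, among 1225 candidates, CML38 (r = 0.994), WRKY22 (0.970), GSTU27 (0.955), ALC (0.929) and CML37 (0.914). CML38, a calmodulin-like gene, had mean signals of 1978 ± 69.1 in selenate roots and 26.6 ± 1.77 in control roots, and 201 ± 92.3 in selenate shoots and 72.1 ± 5.80 in control shoots (SD, n = 2 each). Its means share the order of the 4 groups with BGLU28, but both control means are under 100 and its shoot rise was not called (limma, adjusted p = 0.0683). CML37, of the same family, had means of 1026 ± 13.1 in selenate roots and 9.75 ± 9.83 in control roots (SD, n = 2 each), and of 3.95 in selenate shoots and 2.80 in control shoots. None of these genes nearest BGLU28 was called in shoots, and ALC was not called in roots either (limma, adjusted p = 0.127).

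For AT1G04770 the nearest among 1226 candidates were PAP85 (r = 0.944), ARL (0.911), LCR67 (0.892), WRKY53 (0.825) and EXLA3 (0.821). ARL had means of 1408 ± 67.4 in selenate roots and 619.7 ± 51.8 in control roots, and of 578 ± 26.8 in selenate shoots and 761 ± 3.61 in control shoots (SD, n = 2 each). PAP85 was high in selenate roots, at 180.7 ± 30.3 against 32.7 ± 2.90 in control roots, and had 7.25 ± 7.99 in selenate shoots and 56.5 ± 23.8 in control shoots. Its signals in 3 of the 4 groups were under 100. All 5 had a lower mean in selenate shoots than in control shoots, a direction that their choice by correlation over the same arrays favours. For PAP85, LCR67 and EXLA3 both shoot means were under 100. None of the 5 was called in shoots by limma, with adjusted p-values between 0.0709 and 0.667.

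**Figure D4:**
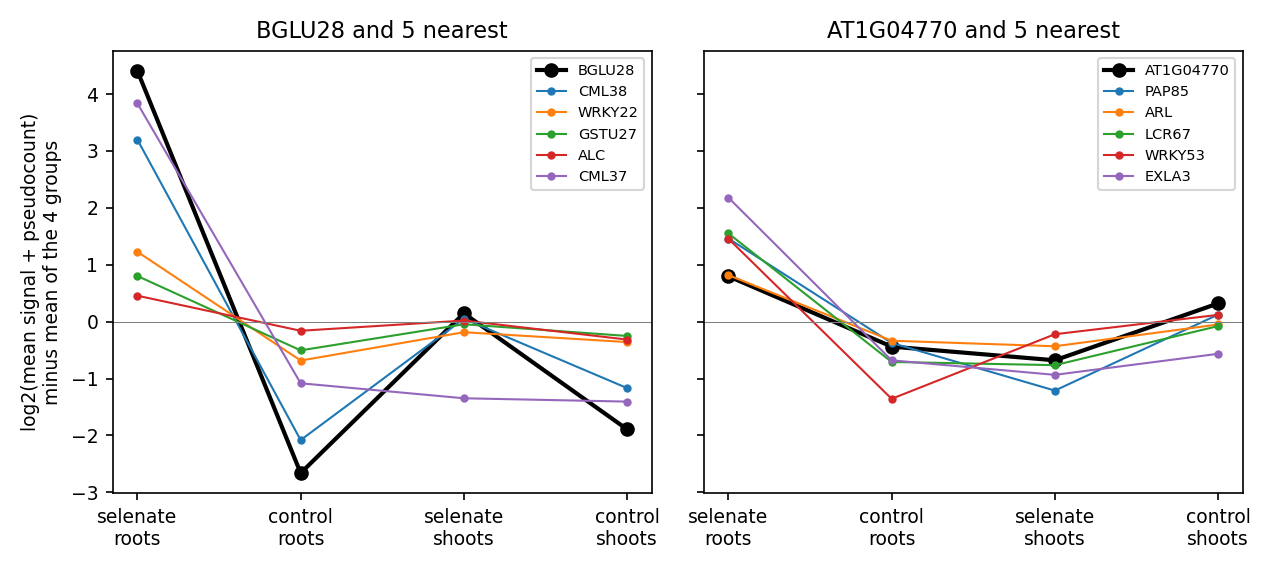
Log2 of mean signal plus the pseudocount, less the mean of the 4 groups, for BGLU28 with its 5 nearest named genes at left and AT1G04770 with its 5 nearest at right, over selenate roots, control roots, selenate shoots and control shoots. Black lines are the 2 markers. The CML38 means have the group order of BGLU28, though its shoot rise was not called, and the AT1G04770 panel spans a smaller range than the BGLU28 panel.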

How the data were processed

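The deposited value is 1 linear intensity per probe set and array, and the submitters' processing notes name MAS5 as the tool; its version, detection calls and genome build are not given in the sources used here. Because MAS5 treats each array alone and subtracts mismatch signals, the relative error grows as signals become low. Trimmed by 2% of probe sets at either end, every array has a mean of about 500.04. Samples were grouped by title.

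Of 22810 probe sets 64 were controls. Those with a signal of at least 100 on 2 or more arrays were fitted with limma 3.58.1 (R 4.3.3) on log2(signal + 25.0), with 1 mean per group, a variance trend and 4 residual degrees of freedom, adjusted by Benjamini-Hochberg over all tested. The fit was also run on simulated data with changes set in selenate roots alone, which does not bear on RNA quality in shoots. The members, lists and settings were chosen with earlier results of these data known, and 2 of the 7 comparisons, selenate roots against control shoots and selenate shoots against control roots, were added after the values were seen. The probe set with the highest mean signal stood for a list gene. By rule the genes named were both markers, every tested list gene and, for each marker, the 5 most correlated genes with a symbol; organ markers, list genes below the filter and the neighbour VAMP726 are named besides. Names come from the platform's annotation, updated from RefSeq assembly TAIR10.1; 13513 probe sets have 1 gene, 503 several and 8730 none. The number of arrays limits precision. Alternatives varied the pseudocount, filter, floor, normalization, variance model, arrays and replicate block.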

Additional observations from a re-analysis of the deposited data

Results flagged for a closer look

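Among the list genes tested, 5 were called for a selenate response that differed between roots and shoots, by the interaction term of limma. The other list genes tested were not called. Of all 16049 probe sets tested, 366 were called with a higher and 228 with a lower response in roots. The root response minus the shoot response was 5.06 (log2) for BGLU28 (limma, adjusted p = 7.38e-05). It was 2.24 for AT1G04770 (adjusted p = 0.00103), with a rise in roots and a fall in shoots. It was 2.27 for AT1G12030 (adjusted p = 0.00515), 2.92 for APS3 (adjusted p = 0.000134) and -1.86 for APS4 (adjusted p = 0.00276). The call of APS4 ended with the replicate number as a block (limma, adjusted p = 0.0695) and that of AT1G12030 without selenate root 2 (0.0604). Without the shoot array with the higher GAPDH ratio in each group these differences were 5.22 for BGLU28, 2.23 for AT1G04770, 2.54 for AT1G12030, 2.97 for APS3 and -1.83 for APS4.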

How the results depend on the processing

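Of 10 log2 differences of BGLU28 and AT1G04770, each recomputed under 21 alternatives (20 for the difference of the response), 7 kept their direction and their call under all of those run. Fitting only the arrays of a comparison leaves fewer residual degrees of freedom. In roots it nevertheless raised the calls, from 537 to 997 higher and from 380 to 1147 lower. In shoots the differences of 2.03 (BGLU28) and -0.999 (AT1G04770) were then not called (limma, adjusted p = 0.131 and 0.271). The BGLU28 difference between control roots and control shoots, -0.79, was not called either (limma, adjusted p = 0.0518). The last was -0.39 with 4 times the pseudocount and 0 with the floor of 100, and with 1 array left out it ran from -1.06 to -0.53, uncalled without control root 1 (adjusted p = 0.118). The shoot difference of AT1G04770 ran from -1.13 to -0.87 with 1 array left out, uncalled in 6 of 8 cases.

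Deviations of same-numbered arrays from their group means correlated over the probe sets with r = 0.34 in roots and -0.49 in shoots. With 2 arrays a group, replicate 2 mirrors replicate 1 and adds nothing to this. As the signs differ between the organs, the numbers were not taken as pairs. With the replicate number as a block the shoot differences of 2.03 and -0.999 were not called (limma, adjusted p = 0.135 and 0.210), roots had 324 probe sets higher and 113 lower, and shoots had 0 and 0. The call of AT1G04770 between selenate roots and control shoots also ended (0.0871), as did the shoot calls of AT1G12030 and BCAT4 (both 0.135) and the APS4 difference of the response (0.0695), and the other 10 calls of the 2 markers over the 7 comparisons did not change. With the shoot numbers crossed, an alternative chosen after seeing the data, 876 were higher and 1004 lower in roots and 799 and 782 in shoots.

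The counts of calls depend on the settings: higher in selenate roots 537 (236 to 997), higher in selenate shoots 171 (0 to 799), lower there 128 (0 to 782), larger response in roots 366 (130 to 931), higher in both organs 29 (0 to 127), higher in roots and lower in shoots 7 (0 to 54), and reversed organ order 54 (35 to 94). The causes were not tested. Signals under 100 limit the size of every BGLU28 fold against a control.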
